A study of Mus musculus with 4 samples.

Results

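The genes of the major histocompatibility complex (MHC, called H2 in the mouse) and of antigen presentation were followed in basal cells of mouse tail epidermis carrying an active Hedgehog signal, with and without Sox9. Members were all probe sets whose annotated symbols were all H2 genes, and those of 18 named genes of the class I and class II presentation pathways. They came to 84 probe sets for 50 genes, of 45037 probe sets and 19324 named genes on the array. The named genes Psme2 and Raet1e had no probe set of their own, and both are described only where their shared probe sets are given.

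Affymetrix 3' arrays were hybridised with RNA of sorted cells from K14CreER:SmoM2:Sox9cKO mice (Sox9cKO, 2 arrays) and from K14CreER:SmoM2 mice (SmoM2, 2 arrays). K14CreER is a Cre recombinase that acts after tamoxifen in basal keratinocytes, and SmoM2 is Smoothened, the transducer of Hedgehog signals, in a mutant form that is always on. Both groups carried K14CreER and SmoM2, and Sox9 was conditionally deleted in the first. All mice had tamoxifen (2.5 mg) for 10 days, and basal interfollicular cells (integrin alpha 6 on, CD34 off) were collected by flow cytometry 9 weeks after the first dose. Strain, H2 haplotype, age and the number of animals behind each array were not in the labels used here, so each p-value reflects only how far these arrays spread.

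The deposited values were log2 signals, with medians of 5.45 to 5.48 on the 4 arrays. Arrays correlated at 0.991 within either group and at 0.978 to 0.980 between groups, across probe sets. Sox9 (1451538_at) was at 6.75 and 5.70 in Sox9cKO, against 10.21 and 10.02 in SmoM2, while its other 2 probe sets did not pass the test. Among basal keratinocyte markers, Krt5, a basal keratin, was at 13.20 and 13.40 in Sox9cKO and at 13.20 and 13.41 in SmoM2 (1424096_at), but most of the list leaned lower in Sox9cKO. Of its 24 probe sets for 10 genes, 19 had a negative change, with a median of −0.34, and the Sox9cKO arrays were both below the SmoM2 arrays for 14 and both above for 0. Over all probe sets they were both below for 21.8% and both above for 22.6%. As a guide to dim signal, 61 probe sets of 34 genes of other organs lay between 3.16 and 6.19 (5th to 95th percentile, median 4.30), a span called the dim range here. Of the 84 member probe sets, 44 were above 6.19 on at least 1 array, and the other 40 are called dim.

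MHC class I molecules are carried by nearly all nucleated cells and show peptides from inside the cell to CD8 T cells. Each is a heavy chain joined to beta 2 microglobulin (B2m), and its peptides are cut by the proteasome and carried into the endoplasmic reticulum by the transporter Tap1 and Tap2. Class II molecules show endosomal peptides to CD4 T cells and are made mainly by professional presenting cells, in the epidermis the Langerhans cells, although keratinocytes can make them after interferon gamma. In the mouse, H2-K and H2-D are the classical class I genes, and the Q, T and M regions hold nonclassical ones. Mouse H2 genes differ between strains and resemble each other closely, so a probe set can read several of them, and how well its probes match the alleles of these mice was not tested.

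Promoters of 6 members are shown because their genes lie on different sides of the comparison described next, with H2-K1, H2-D1 and H2-Q7 named by probe sets that were lower in Sox9cKO, H2-T23 and H2-Aa by probe sets that were higher, and B2m by probe sets that did not pass the test. The sequences are from RefSeq (GRCm38.p6) and run 5′ to 3′ from 250 bases before the annotated start to 50 bases after it. Capitals mark matches on either strand to GGGGATTCC (the kappa B core of enhancer A), GAANNGAAA (a short form of the core of an interferon response element) or GATTGG (the Y box core).
H2-K1 promoter (chr17:34000298-34000597, minus strand): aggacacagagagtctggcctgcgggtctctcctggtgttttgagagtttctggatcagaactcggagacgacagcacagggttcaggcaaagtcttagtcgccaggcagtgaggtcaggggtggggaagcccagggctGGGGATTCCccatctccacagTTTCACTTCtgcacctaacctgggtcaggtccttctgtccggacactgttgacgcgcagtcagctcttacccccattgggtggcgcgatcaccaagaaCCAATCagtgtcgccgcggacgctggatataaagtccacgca
H2-D1 promoter (chr17:35262844-35263143, plus strand): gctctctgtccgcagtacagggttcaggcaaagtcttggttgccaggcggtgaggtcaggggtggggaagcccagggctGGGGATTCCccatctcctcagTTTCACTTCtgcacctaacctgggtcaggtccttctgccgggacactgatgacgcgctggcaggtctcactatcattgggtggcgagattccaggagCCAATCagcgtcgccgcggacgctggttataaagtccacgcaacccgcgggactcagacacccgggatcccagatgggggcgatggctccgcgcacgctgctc
H2-Q7 promoter (chr17:35438905-35439204, plus strand): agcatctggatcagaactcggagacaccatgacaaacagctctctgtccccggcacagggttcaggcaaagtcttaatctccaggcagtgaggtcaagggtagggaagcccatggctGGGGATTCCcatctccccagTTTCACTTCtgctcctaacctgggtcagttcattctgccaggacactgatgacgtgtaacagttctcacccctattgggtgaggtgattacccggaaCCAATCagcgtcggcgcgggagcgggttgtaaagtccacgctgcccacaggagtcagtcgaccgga
B2m promoter (chr2:122147437-122147736, plus strand): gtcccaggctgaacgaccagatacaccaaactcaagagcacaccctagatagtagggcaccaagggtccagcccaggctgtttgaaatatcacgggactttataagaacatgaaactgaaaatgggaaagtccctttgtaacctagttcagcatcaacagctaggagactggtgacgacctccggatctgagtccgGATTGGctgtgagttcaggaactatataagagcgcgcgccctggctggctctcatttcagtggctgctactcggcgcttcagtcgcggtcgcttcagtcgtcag
H2-T23 promoter (chr17:36032652-36032951, minus strand): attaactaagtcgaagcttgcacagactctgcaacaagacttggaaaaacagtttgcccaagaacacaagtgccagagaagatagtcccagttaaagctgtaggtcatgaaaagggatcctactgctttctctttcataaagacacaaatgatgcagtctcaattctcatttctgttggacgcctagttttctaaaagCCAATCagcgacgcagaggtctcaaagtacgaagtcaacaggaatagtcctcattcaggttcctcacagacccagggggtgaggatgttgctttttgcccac
H2-Aa promoter (chr17:34287774-34288073, minus strand): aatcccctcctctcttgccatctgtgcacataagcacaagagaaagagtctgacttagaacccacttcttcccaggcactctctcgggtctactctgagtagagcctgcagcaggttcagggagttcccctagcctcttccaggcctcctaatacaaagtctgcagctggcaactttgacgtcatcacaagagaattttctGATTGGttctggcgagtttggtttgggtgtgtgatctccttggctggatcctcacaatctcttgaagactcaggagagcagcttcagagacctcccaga

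H2-K1, H2-D1 and H2-Q7 each held 1 match to all 3 motifs, while B2m, H2-T23 and H2-Aa each held 1 Y box core and no match to the other motifs in this window. Of the 50 member genes, 34 had a promoter in the RefSeq table, and the first listed window of each gene was read. The kappa B core stood in 4 of these 34 (11.8%, H2-D1, H2-K1, H2-Q6 and H2-Q7), against 0.259% of the 27025 genes in the table. The interferon response core in the searched form stood in 9 of the 34 (26.5%), against 7.56% of all. The Y box core stood in 22 of the 34 (64.7%), against 16.6%. The 9 with the interferon core were H2-D1, H2-K1, H2-Q4, H2-Q6, H2-Q7, H2-Q10, H2-M3, Ctss and Psme1. Of these, H2-Q10, H2-M3, Ctss and Psme1 had no probe set that passed the test. H2 promoters resemble each other in sequence, so these counts are not independent, and a match is a description of the letters, not of a bound factor. Enhancer A and the Y box are known elements of MHC promoters. Their higher shares among members were therefore fixed by the choice of motif and are no result of these data. The search was made after the values were seen.

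Of the class I heavy chains, 5 of 14 probe sets of H2-K1 and H2-D1 and 4 of 8 of the Q region were lower in Sox9cKO than in SmoM2. Of those 4, 1 was also named for H2-K1. Both probe sets of H2-T23 were higher. Of the class II gene H2-Aa, 2 of 4 probe sets were higher, and the class I light chain, peptide loading, proteasome and transactivator genes did not pass the test. Of the 84 member probe sets, 13 passed (15.5%), against 3.82% of all 45037 probe sets tested. In Sox9cKO, 4 members were higher (4.76%, against 1.48% of all probe sets) and 9 were lower (10.7%, against 2.34%). Both Sox9cKO arrays lay above both SmoM2 arrays for 25 members (29.8%, against 22.6% of all probe sets) and below them for 31 (36.9%, against 21.8%), and the groups overlapped for 28. The median log2 change, Sox9cKO minus SmoM2, was −0.05 over members and 0.01 over all probe sets. At an unadjusted limma p under 0.05 were 28 of the 84 members, against 6732 of all 45037 probe sets. Calls were made with limma across all probe sets at a Benjamini-Hochberg adjusted p under 0.05. A lower signal from sorted bulk RNA can stand for fewer cells that carry a transcript or for less of it in each cell, and these cannot be told apart. Most of the 13 calls were lost in at least 1 fit that left out 1 array. Of the 13 called probe sets, 6 carry a suffix (_x_at or _s_at) that marks probes shared with other transcripts. Among the rest, only 1426324_at (H2-D1) was named for a single gene, and the others were each named for several H2 genes.

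**Figure D1:**
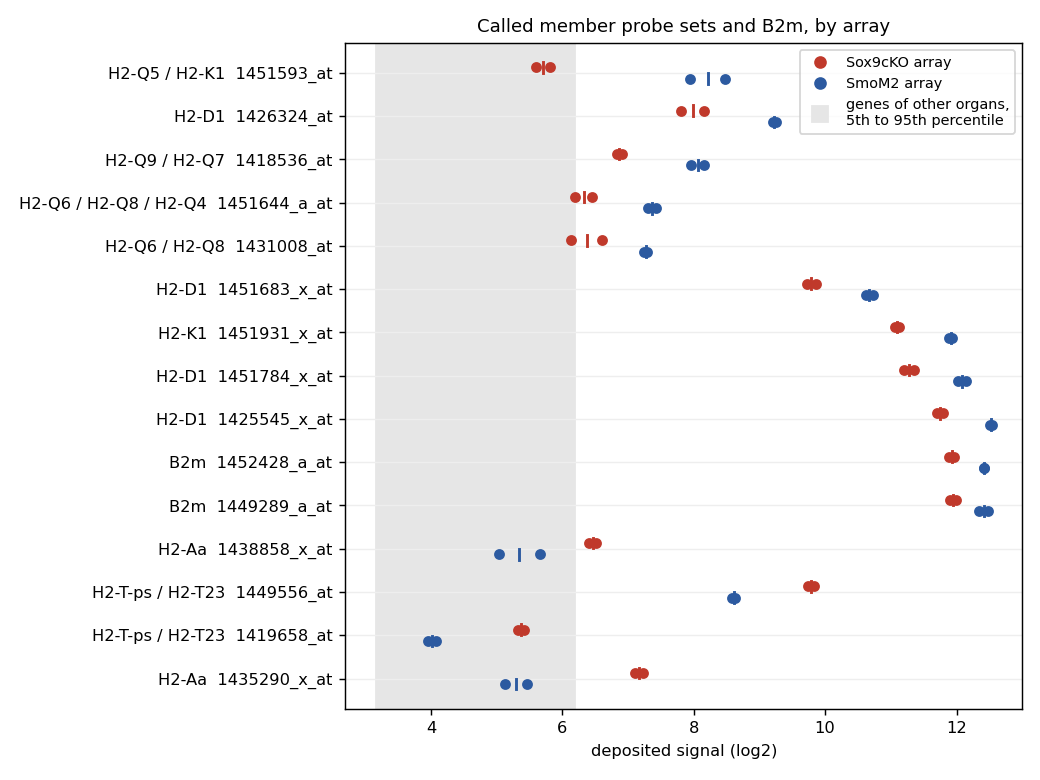
Deposited log2 signal (x axis) of the 13 member probe sets that passed the test and of both B2m probe sets, with 1 point per array (Sox9cKO red, SmoM2 blue) and a bar at each group mean; the grey band is the dim range. The called K, D and Q region probe sets are lower on both Sox9cKO arrays than on both SmoM2 arrays, and those of H2-T23 and H2-Aa are higher.

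The classical class I genes H2-D1 and H2-K1 encode the heavy chains that present peptides to CD8 T cells. Of their 14 probe sets, 5 were lower in Sox9cKO and 0 were higher (against 2.34% and 1.48% of all probe sets). Their median log2 change was −0.49, with a range of −1.25 to 0.18. Sox9cKO arrays were both below the SmoM2 arrays for 11 of the 14 (against 21.8% of all probe sets). They were both above for 0 (against 22.6% of all probe sets). The basal keratinocyte list leaned the same way (below for 14 of 24 and above for 0, with 9 at an unadjusted limma p under 0.05), with a summed linear signal of 45734 to 50531 in Sox9cKO, against 52758 to 65140 in SmoM2, and its part in the class I differences was not tested. H2-D1 was lower at 4 of its 9 probe sets and H2-K1 at 1 of its 4, and a 14th probe set named for both genes did not pass (−0.65, adjusted p = 0.107). The strongest change of H2-D1 was at 1426324_at, with 8.16 and 7.80 in Sox9cKO, against 9.21 and 9.25 in SmoM2. Both Sox9cKO arrays were low, and the groups lay more than 1 log2 unit apart in their means, with a change of −1.25 (SE 0.17, 2.37-fold, limma adjusted p = 0.00964).

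The brightest H2-D1 probe set, 1425545_x_at, was at 11.80 and 11.70 in Sox9cKO, against 12.53 and 12.51 in SmoM2 (−0.77, SE 0.14, 1.71-fold, limma adjusted p = 0.0292). At 1451784_x_at the H2-D1 signals were 11.35 and 11.20 in Sox9cKO, against 12.14 and 12.02 in SmoM2 (−0.80, limma adjusted p = 0.0297). At 1451683_x_at they were 9.73 and 9.86 in Sox9cKO, against 10.62 and 10.73 in SmoM2 (−0.88, limma adjusted p = 0.0199). None of these groups overlapped, and the size of the change was alike at the 3 probe sets. H2-K1 was lower at 1451931_x_at, with 11.13 and 11.07 in Sox9cKO, against 11.94 and 11.88 in SmoM2 (−0.81, SE 0.14, 1.76-fold, limma adjusted p = 0.0236). Its brightest probe set, 1425336_x_at, was at 11.65 and 11.43 in Sox9cKO, against 11.95 and 12.05 in SmoM2, without overlap, and did not pass (−0.46, adjusted p = 0.192).

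The 5 H2-D1 probe sets that did not pass had changes from −0.43 to 0.18, and those of H2-K1 that did not pass had changes from −0.53 to −0.13. These 4 smaller calls (H2-D1 at 1451683_x_at, 1451784_x_at and 1425545_x_at, and H2-K1 at 1451931_x_at) were each lost when any 1 array was left out. Their changes stayed between −0.94 and −0.72 in such fits, which had fewer arrays and made fewer calls over all probe sets. The call of H2-D1 at 1426324_at was lost without SmoM2 replicate 2 (adjusted p = 0.0508).

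The Q region, which holds the genes of the nonclassical Qa-2 antigens H2-Q7 and H2-Q9, had 8 member probe sets, of which 4 were lower in Sox9cKO and 0 were higher, with a median change of −0.70. Over all probe sets, 2.34% were lower and 1.48% higher. The largest log2 difference of any member was at 1451593_at, a probe set named for H2-Q5 and H2-K1, which was at 5.81 and 5.60 in Sox9cKO, against 8.48 and 7.94 in SmoM2. Its Sox9cKO signals were within the dim range and its SmoM2 signals above it, and the difference of the deposited log2 signals was −2.50 (95% interval −2.99 to −2.02, SE 0.21, limma adjusted p = 0.00176). No fold is given where the lower group was within that range. The difference was larger than at any of the 4 probe sets named for H2-K1 alone, and which of its 2 named genes this probe set read was not tested. It was counted with the Q region, so the number of calls and the median of that region include it.

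The probe set of H2-Q9 and H2-Q7, 1418536_at, was at 6.83 and 6.90 in Sox9cKO, against 8.16 and 7.96 in SmoM2 (−1.19, SE 0.15, 2.29-fold, limma adjusted p = 0.00701). That of H2-Q6, H2-Q8 and H2-Q4, 1451644_a_at, was at 6.45 and 6.19 in Sox9cKO, against 7.31 and 7.42 in SmoM2 (−1.04, 2.06-fold, limma adjusted p = 0.0144). A further probe set of H2-Q6 and H2-Q8, 1431008_at, was at 6.13 and 6.61 in Sox9cKO, against 7.25 and 7.29 in SmoM2 (−0.90, 1.86-fold, limma adjusted p = 0.0493). In these 3 the Sox9cKO arrays were the low ones, near the top of the dim range or above it, and the groups did not overlap. The calls at 1451593_at and 1418536_at held without any 1 array. The call at 1451644_a_at was lost without SmoM2 replicate 1 (adjusted p = 0.0534), SmoM2 replicate 2 (0.0750) or Sox9cKO replicate 2 (0.0722). The call at 1431008_at was lost without SmoM2 replicate 1 (0.154), SmoM2 replicate 2 (0.167) or Sox9cKO replicate 1 (0.175). The other 4 Q region probe sets, for H2-Q5, H2-Q2 and H2-Q10, were dim and did not pass, with changes of −0.49 to 0.26.

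H2-T23 encodes Qa-1, the nonclassical class I molecule that shows leader peptides of other class I chains to the NKG2A receptor of natural killer cells. Its 2 probe sets, both also named for the neighbouring pseudogene H2-T-ps, were higher in Sox9cKO, opposite in direction to the K, D and Q region calls. At 1449556_at the signals were 9.74 and 9.84 in Sox9cKO, against 8.59 and 8.63 in SmoM2 (1.18, SE 0.14, 2.26-fold, limma adjusted p = 0.00584). At 1419658_at they were 5.42 and 5.32 in Sox9cKO, against 4.08 and 3.96 in SmoM2 (1.35, SE 0.14, limma adjusted p = 0.00397). Each pair of arrays was tightly grouped and the groups did not overlap, and both calls held without any 1 array. The second probe set was dim, the only called member that was.

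The other 7 T region probe sets did not pass, and the 2 calls were the only ones among the 9. The brightest of them, 1449875_s_at for H2-T9, H2-T22 and H2-T10, of which H2-T22 is a ligand of gamma delta T cell receptors, was at 7.87 and 8.26 in Sox9cKO, against 8.12 and 7.91 in SmoM2, with overlapping groups (0.05, adjusted p = 0.945). Probe sets of H2-T3, the thymus leukemia antigen gene, and of H2-T18 had changes between 0.06 and 0.17. H2-T24 was dim, with a change of 0.48 (adjusted p = 0.187). H2-M3, which presents N-formylated bacterial peptides, was at 6.07 and 6.40 in Sox9cKO, against 6.56 and 6.46 in SmoM2 (−0.27, adjusted p = 0.531). The M region's H2-M9 and H2-M10.1, and H2-Bl and H2-D4, were dim and did not pass. Over all 36 class I heavy chain probe sets, 2 were higher and 9 lower in Sox9cKO (against 1.48% and 2.34% of all probe sets), with a median change of −0.24.

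**Figure D2:**
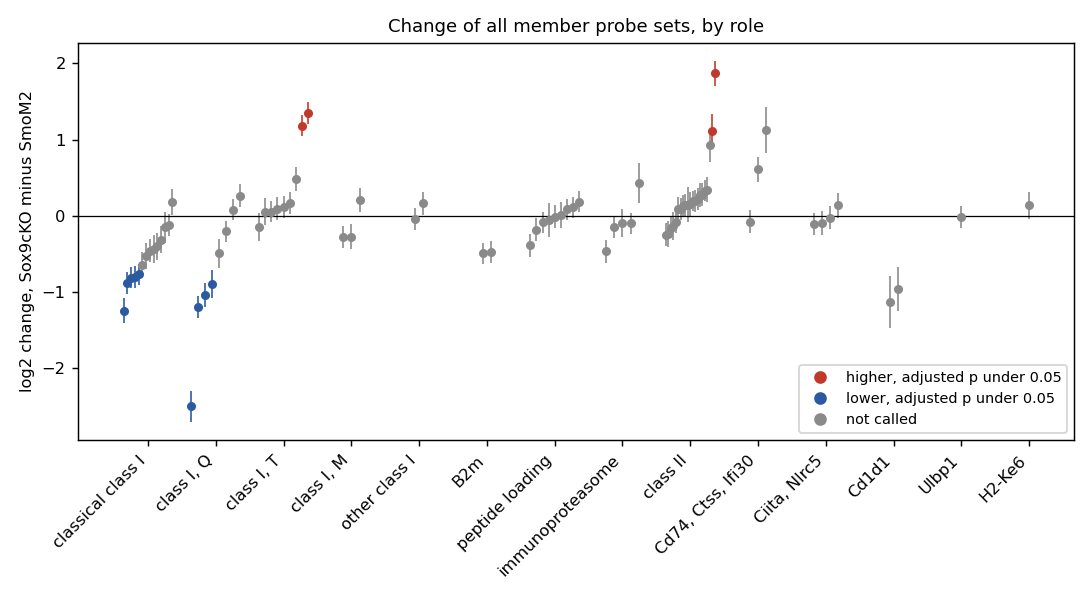
Log2 change, Sox9cKO minus SmoM2 (y axis), of the 84 member probe sets grouped by role (x axis), with bars of 1 standard error; red and blue points passed the test as higher and lower, grey points did not. The blue points are in the classical and Q region groups, and the red points in the T region and class II groups.

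B2m, the light chain that every class I molecule needs to reach the cell surface, was at 11.88 and 11.97 in Sox9cKO, against 12.42 and 12.42 in SmoM2 (1452428_a_at). Its second probe set, 1449289_a_at, was at 11.90 and 11.99 in Sox9cKO, against 12.35 and 12.48 in SmoM2. Both Sox9cKO arrays lay below both SmoM2 arrays at each, but neither passed, with changes of −0.49 (95% interval −0.82 to −0.17, adjusted p = 0.125) and −0.47 (adjusted p = 0.154). With an intensity trend and a robust prior in the fit, 1452428_a_at passed (adjusted p = 0.0434).

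The genes that make and load class I peptides did not pass the test. Together with B2m they had 16 probe sets for 9 genes, of which 0 were called in either direction, with changes from −0.49 to 0.43 and a median of −0.09. At an unadjusted p under 0.05 the limma count was 4 of the 16, against 6732 of all 45037 probe sets. Tap1, a subunit of the peptide transporter, was at 8.41 and 8.37 in Sox9cKO, against 8.22 and 8.19 in SmoM2, a change of 0.19 with a 95% interval of −0.13 to 0.51 (adjusted p = 0.633). Tap2, its partner subunit, was at 8.53 and 8.54 in Sox9cKO, against 8.79 and 9.07 in SmoM2, a change of −0.39 with an interval of −0.76 to −0.02 (adjusted p = 0.295). Their groups did not overlap at these probe sets, in opposite directions.

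Tapbp (tapasin), which bridges the transporter and the heavy chain, was at 9.06 and 9.31 in Sox9cKO, against 9.31 and 9.43 in SmoM2 (−0.18, adjusted p = 0.696). Erap1, the aminopeptidase that trims peptides, was at 8.28 and 8.24 in Sox9cKO, against 8.15 and 8.38 in SmoM2 (−0.01, adjusted p = 0.985). The immunoproteasome subunit Psmb9 was at 7.79 and 7.96 in Sox9cKO, against 8.43 and 8.25 in SmoM2, without overlap (−0.47, 95% interval −0.82 to −0.11, adjusted p = 0.186). The other subunits showed smaller differences, also without overlap, with Psmb8 at 9.16 and 9.26 in Sox9cKO, against 9.28 and 9.33 in SmoM2 (−0.10, adjusted p = 0.844). Psmb10 was at 8.53 and 8.63 in Sox9cKO, against 8.82 and 8.64 in SmoM2 (−0.15, adjusted p = 0.742). Psme1, a subunit of the PA28 proteasome activator, was at 10.16 and 10.64 in Sox9cKO, against 10.54 and 10.46 in SmoM2, with overlap (−0.10, adjusted p = 0.889). The probe set shared by Psme2 and Psme2b was at 10.69 and 11.17 in Sox9cKO, against 11.09 and 10.91 in SmoM2, again with overlap (adjusted p = 0.927).

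Nlrc5 is the transactivator of class I genes and Ciita that of class II genes. Nlrc5 was at 7.46 and 7.26 in Sox9cKO, against 7.49 and 7.28 in SmoM2, with a change of −0.02 and a 95% interval of −0.39 to 0.34 (adjusted p = 0.971). Ciita was dim at its 3 probe sets, with changes of −0.11, −0.10 and 0.14. Among 12 measured genes of a list of further MHC gene regulators, 24 probe sets, 0 passed the limma test in either direction. At an unadjusted p under 0.05 were 3 of the 24, against 6732 of all 45037 probe sets.

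**Figure D3:**
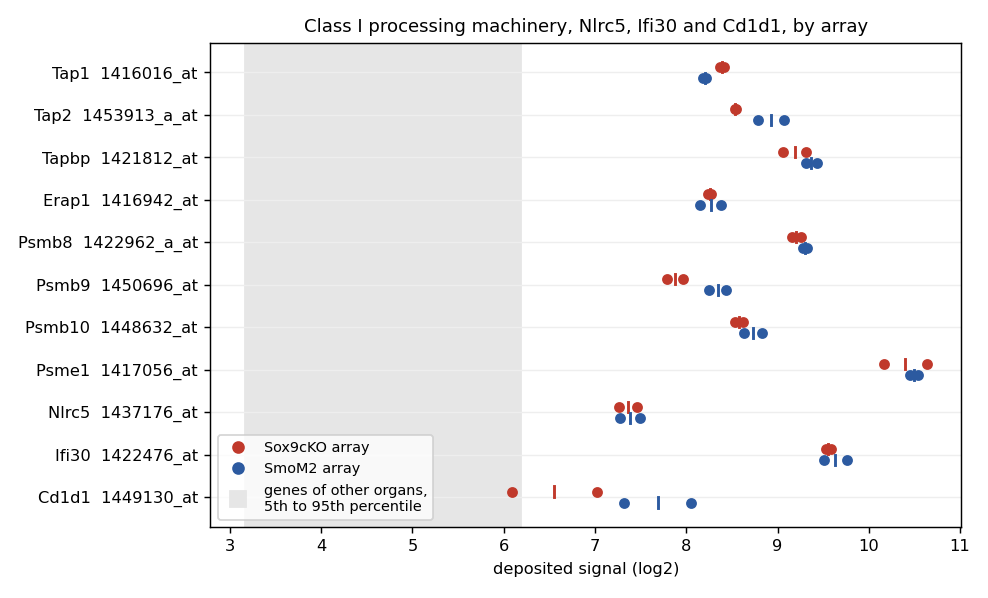
Deposited log2 signal (x axis) of the brightest probe set of class I loading and proteasome genes, Nlrc5, Ifi30 and Cd1d1 (y axis), with 1 point per array (Sox9cKO red, SmoM2 blue), bars at the group means and the dim range in grey. For Tap1 the Sox9cKO arrays are above the SmoM2 arrays, for Tap2, Psmb8, Psmb9, Psmb10 and Cd1d1 below, and no gene shown passed the test.

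Class II genes encode the I-A molecule (H2-Aa and H2-Ab1), the I-E molecule (H2-Ea and H2-Eb1) and the peptide exchange factors H2-DM and H2-O. Of their 21 probe sets, 2 were higher in Sox9cKO, both for H2-Aa, and 0 were lower (against 1.48% and 2.34% of all probe sets). Of the 21 changes, 16 were positive, with a median of 0.16, but 13 of the 21 probe sets were dim. Positive changes numbered 23245 of 45037 over all probe sets and 37 of 61 for the genes of other organs. At 1435290_x_at H2-Aa was at 7.22 and 7.11 in Sox9cKO, against 5.47 and 5.13 in SmoM2 (1.87, SE 0.17, limma adjusted p = 0.00222). At 1438858_x_at it was at 6.51 and 6.41 in Sox9cKO, against 5.66 and 5.03 in SmoM2 (1.11, SE 0.22, limma adjusted p = 0.0410). The SmoM2 arrays were within the dim range at both and the Sox9cKO arrays above it, so the values are differences of log2 signals with no fold. The first call held without any 1 array, and the second was lost without SmoM2 replicate 2 (adjusted p = 0.102), Sox9cKO replicate 1 (0.155) or Sox9cKO replicate 2 (0.123).

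A further H2-Aa probe set, 1452431_s_at, was at 5.86 and 6.14 in Sox9cKO, against 5.35 and 4.80 in SmoM2, without overlap, and did not pass (0.92, adjusted p = 0.0715; without SmoM2 replicate 1, 1.20, adjusted p = 0.0423). The last, 1443783_x_at, was at 3.06 to 3.28 on the 4 arrays, with a change of −0.08. H2-Ab1, whose product pairs with that of H2-Aa, was at 7.97 and 7.75 in Sox9cKO, against 7.88 and 7.66 in SmoM2, with overlapping groups (1450648_s_at, 0.09, 95% interval −0.29 to 0.47, adjusted p = 0.879). Its other 2 probe sets had changes of 0.23 and −0.25 and did not pass. H2-Eb1 was at 7.34 and 7.62 in Sox9cKO, against 7.29 and 7.12 in SmoM2 (0.27, 95% interval −0.10 to 0.65, adjusted p = 0.522). H2-Ea, H2-Eb2, the H2-DM genes, H2-Oa and H2-Ob did not pass, with changes from −0.24 to 0.34.

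Cd74, the invariant chain that guards the class II groove, was at 6.18 and 6.38 in Sox9cKO, against 5.81 and 5.54 in SmoM2, without overlap (0.61, adjusted p = 0.111). Ctss, the protease that cuts the invariant chain, was at 5.64 and 4.77 in Sox9cKO, against 4.33 and 3.83 in SmoM2, without overlap and dim (1.12, SE 0.30, adjusted p = 0.113). It passed without Sox9cKO replicate 2 (1.56, adjusted p = 0.0333). Ifi30, the thiol reductase of antigen processing, was at 9.59 and 9.53 in Sox9cKO, against 9.76 and 9.50 in SmoM2, with overlap (−0.08, adjusted p = 0.896).

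Since class II transcripts in epidermis are made mainly by Langerhans cells, markers of such cells were read on the same arrays. All 19 listed Langerhans and myeloid marker genes had probe sets, 28 in all, with a median change of 0.18. Of these, 1 was higher in Sox9cKO (against 1.48% of all probe sets) and 0 were lower. Sox9cKO arrays were both above SmoM2 arrays for 14 of the 28, against 22.6% of all probe sets, and both below for 2. The signals of these markers lay between 3.38 and 7.01, with 23 of the 28 dim, among them those of Ptprc, Itgax and Cd207 (langerin). The one that passed was Csf1r at 1419872_at, with 6.11 and 6.29 in Sox9cKO, against 5.01 and 4.55 in SmoM2 (1.42, limma adjusted p = 0.00946), while its other 2 probe sets did not pass (0.12 and 0.05). The summed linear signal of the list was 1109 to 1114 in Sox9cKO, against 927 to 966 in SmoM2, so it was higher on both Sox9cKO arrays. Such sums were also higher on both for fibroblasts, melanocytes and genes of other organs (1809 and 1842, against 1759 and 1624 in SmoM2). They were lower on both for T cells (832 and 915, against 1061 and 985) and for basal keratinocytes, and overlapped for B cells and endothelium. Cd207 was at 5.08 and 5.39 in Sox9cKO, against 4.96 and 4.54 in SmoM2 (0.48, adjusted p = 0.301). The part of these markers in the H2-Aa difference was not tested. Of the T cell, B cell, fibroblast, endothelial and melanocyte lists, 0 probe sets passed the limma test, with 3, 1, 1, 0 and 1 at an unadjusted p under 0.05. These lists had 24, 7, 12, 7 and 11 probe sets, and over all 45037 the unadjusted count was 6732. Of 24 basal keratinocyte probe sets, 1 was lower in Sox9cKO and 0 were higher (against 2.34% and 1.48% of all probe sets). The lower one was that of Lamb3, a laminin chain (−1.25, limma adjusted p = 0.0163). The Lamb3 call was lost without SmoM2 replicate 2 or Sox9cKO replicate 1. The sorting marker Itga6 was at 11.14 and 11.15 in Sox9cKO, against 11.42 and 11.77 in SmoM2 (adjusted p = 0.252), and Cd34 was at 3.95 and 3.75 in Sox9cKO, against 4.14 and 4.15 in SmoM2.

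**Figure D4:**
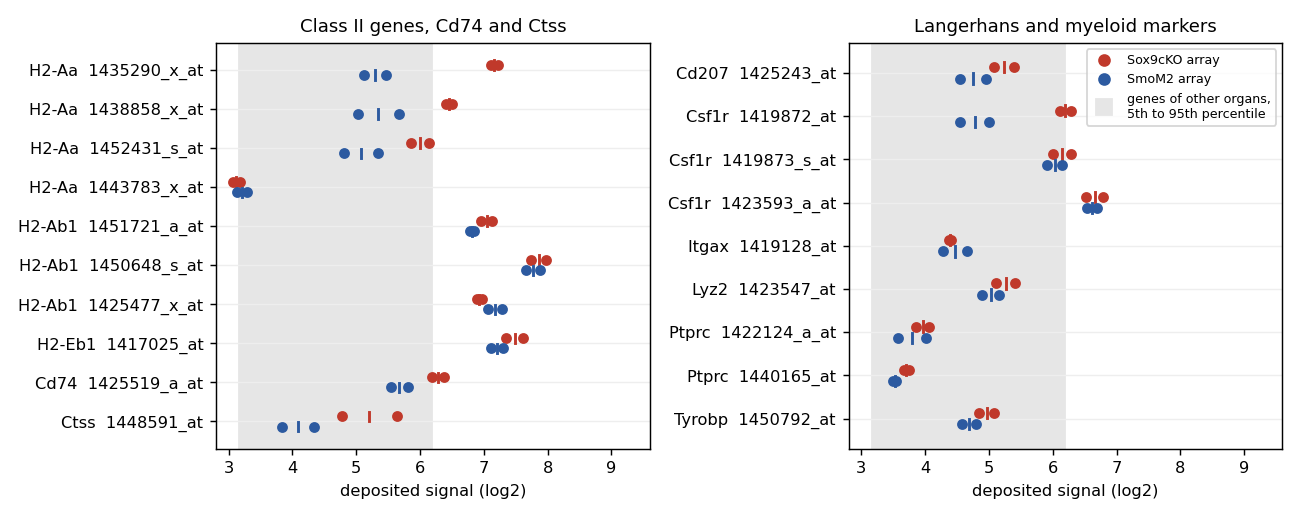
Deposited log2 signal (x axis) of class II genes, Cd74 and Ctss (left) and of Langerhans and myeloid markers (right), with 1 point per array (Sox9cKO red, SmoM2 blue), bars at group means and the dim range in grey. The H2-Aa probe sets 1435290_x_at and 1438858_x_at and Csf1r at 1419872_at are higher on both Sox9cKO arrays and passed the test, and most markers are dim.

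Cd1d1 encodes a class I-like molecule that shows lipids to natural killer T cells. At 1449130_at it was at 7.02 and 6.09 in Sox9cKO, against 8.06 and 7.32 in SmoM2, and at 1449131_s_at at 6.88 and 6.16 in Sox9cKO, against 7.80 and 7.16 in SmoM2. Replicate 2 was the lower array of each group, the groups did not overlap, and neither probe set passed (−1.13, 95% interval −1.94 to −0.32, adjusted p = 0.160, and −0.96, adjusted p = 0.161). Ulbp1, a stress ligand of the NKG2D receptor, was dim (−0.01, adjusted p = 0.981). So was the probe set shared by Raet1e and Raet1d, at 4.52 and 4.38 in Sox9cKO, against 4.44 and 4.20 in SmoM2 (adjusted p = 0.802). H2-Ke6, a member by its name whose product is a steroid dehydrogenase and not an antigen presenting molecule, had a change of 0.13 (adjusted p = 0.825).

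Other genes of the pathway were read from lists. Of 11 constitutive proteasome genes (27 probe sets), 13 endoplasmic reticulum chaperone and trimming genes (35), 9 interferon gamma signalling genes (20) and 8 other class I-like and stress ligand genes (10), 0 probe sets passed the limma test in either direction, with 1, 1, 4 and 0 at an unadjusted p under 0.05. Over all 45037 probe sets that unadjusted count was 6732. Interferon-stimulated genes had 54 probe sets for 37 genes, of which 5 were higher in Sox9cKO and 0 were lower, with a median change of 0.05. Over all probe sets, 1.48% were higher and 2.34% lower. The antiviral gene Ifit2 was at 6.13 and 6.23 in Sox9cKO, against 4.55 and 4.79 in SmoM2 (1.51, limma adjusted p = 0.00329). Oas1a, an activator of RNA decay, was at 7.73 and 8.27 in Sox9cKO, against 6.18 and 5.99 in SmoM2 (1.91, limma adjusted p = 0.00426). Irf7, a transcription factor of type I interferon genes, was at 6.35 and 5.91 in Sox9cKO, against 5.05 and 5.07 in SmoM2 (1.07, limma adjusted p = 0.0233). Usp18 (0.95, adjusted p = 0.0344) and Cxcl10 (2.01, adjusted p = 0.0485) were the other calls. Those of Ifit2 and Oas1a held without any 1 array, and those of Irf7, Usp18 and Cxcl10 were lost in at least 1 such fit, with adjusted p up to 0.0956, 0.153 and 0.189. These 5 moved in the direction of H2-T23 and opposite to the calls of H2-D1, H2-K1 and the Q region, and no test linked them to the members.

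Lysosomal proteases, which cut antigens for class II loading among many other tasks, had 15 probe sets for 7 of 10 listed genes, with a median change of −0.42. Of these, 5, for 3 genes, were lower in Sox9cKO and 0 were higher (against 2.34% and 1.48% of all probe sets). Ctsl was at 8.36 and 8.43 in Sox9cKO, against 10.68 and 11.26 in SmoM2 (−2.57, SE 0.21, limma adjusted p = 0.00164), and its call held without any 1 array. Ctsb was at 7.30 and 7.04 in Sox9cKO, against 8.25 and 8.56 in SmoM2 (1417491_at, −1.23, limma adjusted p = 0.0113). Ctsh was at 8.01 and 8.11 in Sox9cKO, against 9.39 and 8.98 in SmoM2 (1443814_x_at, −1.13, limma adjusted p = 0.0172). At these 3 probe sets both Sox9cKO arrays were the low ones. The call of Ctsb at this probe set was lost without SmoM2 replicate 2 or Sox9cKO replicate 2 (adjusted p up to 0.0569), and that of Ctsh without any array but SmoM2 replicate 2 (up to 0.0824). A further probe set of Ctsb (1417492_at, −0.71, adjusted p = 0.0490) and the other of Ctsh (−0.89, adjusted p = 0.0414) were also lower, and were lost in 4 and 3 of the 4 such fits. The other 3 Ctsb probe sets (−0.25, −0.42 and −0.61) and the other Ctsl probe set, which was dim (−0.04), did not pass. The 3 probe sets of Ctsz had positive changes, of 0.59 to 0.81, and did not pass. Of 19 costimulation and coinhibition probe sets, 1 passed (against 3.82% of all probe sets), and a single call says little about the list. It was that of the T cell costimulator Cd80, dim at 4.76 and 4.57 in Sox9cKO, against 5.62 and 5.43 in SmoM2 (−0.86, limma adjusted p = 0.0283). This call was lost whichever array was left out.

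The 13 called members all lay in the H2 region of chromosome 17, between H2-K1 and H2-M2 in RefSeq gene order. There, 13 of 64 member probe sets passed (20.3%), against 0 of the 20 members that lay elsewhere or were unplaced. Of those 20, 6 had an unadjusted limma p under 0.05, against 6732 of all 45037 probe sets. Of 154 probe sets of 98 other genes in that span, 6 passed (3.90%, against 3.82% of all probe sets), 4 higher and 2 lower in Sox9cKO. These were C2 (0.78), Hspa1a (0.98), both probe sets of D17H6S56E-5 (1.37 and 1.25), Ly6g6c (−1.10) and Ly6g6e (−1.32), named after their values were seen. Of these calls, those of D17H6S56E-5 held without any 1 array, that of C2 was lost in all 4 such fits, those of Hspa1a and Ly6g6c in 3 and that of Ly6g6e in 2. Within the span, the members called lower lay at the K end and in the D and Q regions, and those called higher at the class II H2-Aa and in the T region. The comparison with neighbouring genes was made after the values were seen.

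**Figure D5:**
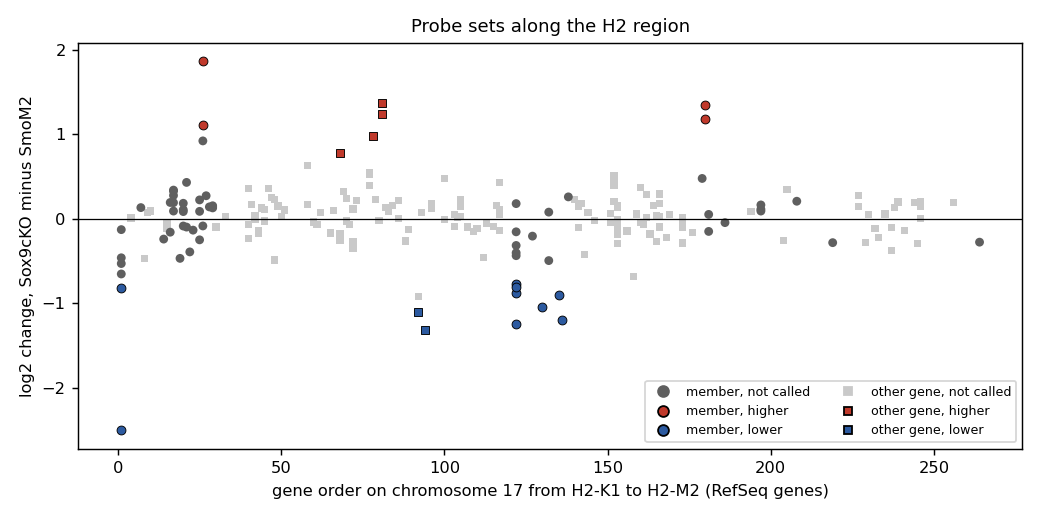
Log2 change, Sox9cKO minus SmoM2 (y axis), of probe sets placed by gene order from H2-K1 to H2-M2 (x axis), with circles for members, squares for other genes, red for higher, blue for lower and grey for not called. The probe set named for H2-Q5 and H2-K1 is drawn at H2-K1, and blue circles lie there and in the D and Q regions.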

How the data were processed

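Sorted basal cells from 2 Sox9cKO and 2 SmoM2 samples were measured on Affymetrix arrays. The authors deposited 1 log2 signal for each probe set and array, a scale read from the range of the values. How they were normalized is not stated in the sources at hand. The submitters' processing notes name R 2.14.0. Of the 45101 probe sets, the 64 controls were left out. The platform annotation gave 1 symbol to 34945 of the others, several to 932 and none to 9160. All 45037 were fitted as deposited with limma 3.58.1 in R 4.3.3 (lmFit, then eBayes, two-sided, no covariate, 6.99 degrees of freedom, prior included), with Benjamini-Hochberg adjustment over all of them and a threshold of 0.05. Arrays give no read depth, so their number limits the precision, and an exact permutation test of 2 against 2 arrays could not give a p below 0.333. The procedure was tested on simulated data with independent noise for each probe set and array, so that test does not cover H2 probe sets that read several genes.

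Members and lists were chosen with earlier results of these data known. Named are all members that passed, the 4 brightest probe sets of each role, a set list of key genes, and up to 4 called probe sets of each other list. Not every probe set that this rule names has its values printed. Alternatives were the brightest probe set per gene, an intensity trend with a robust prior, only probe sets at or above the median mean signal, quantile normalization, centred medians, no _x_at or _s_at probe sets, a replicate block and leaving out each array. Normalization before deposit may have taken out any shift common to most probe sets.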

Additional observations from a re-analysis of the deposited data

How the results depend on the processing

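Over all probe sets, 1720 were called, against 1126 of 18193 with the brightest probe set per gene, 3474 with the replicate number as a block, and 1021 to 1142 when 1 array was left out. Member probe sets called higher in Sox9cKO numbered 4, against 1 per gene, 2 without _x_at and _s_at probe sets and 3 to 5 with 1 array left out. Those called lower numbered 9, against 1 per gene (H2-D1), 5 without _x_at and _s_at probe sets and 2 to 4 with 1 array left out. Both settings drop probe sets, and the per-gene one also drops those with several symbols. Counts of calls stayed within 1.5 times under centring, quantile normalization, the intensity trend and a filter that kept the 22519 probe sets at or above the median mean signal. A fit without 1 array assumes that the lone array of its group varies like the other group.

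The labels do not say that replicate numbers pair samples, and the replicate 1 deviations of the groups correlated at 0.121 across probe sets. With the replicate block, 6 members were higher and 12 lower, and Cd1d1 (adjusted p = 0.000859 and 0.00239) and Ctss (0.00123) passed. Under quantile normalization the call of H2-Q6 and H2-Q8 at 1431008_at was lost (adjusted p = 0.0635), for a cause that was not tested. No named member changed the sign of a call under any of these settings, which is no test of the calls. Several settings leave the log2 change as it was. The groups of called members did not overlap, so leaving out 1 array could not reverse their sign. The median change of the Q region was 0.08 per gene, a setting that leaves out its 4 called probe sets, against −0.70 over all 8.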
